A study of Mus musculus with 4 samples.

Results

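The messenger RNAs encoded by the mitochondrial genome were followed across the cell classes of the mouse testis. The members were the matrix rows with the symbols mt-Nd1, mt-Nd2, mt-Nd3, mt-Nd4 and mt-Nd5, subunits of complex I, mt-Cytb, the mitochondrially encoded subunit of complex III, mt-Co1, mt-Co2 and mt-Co3, the catalytic core of complex IV, and mt-Atp6, a membrane subunit of the ATP synthase. All 10 were found among 28692 genes. The study profiled testicular cells of C57BL/6 mice at postnatal day 63 in 4 samples, 2 labelled Phf7 tKO, with the genotype Stra8-Cre:Phf7 f/f, and 2 labelled Phf7 f/f. All 4 thus carry the floxed alleles of Phf7, and the Stra8 promoter drives Cre in the male germ line. Whether each sample is a separate animal is not stated in the labels. The cells were captured as a suspension of enzyme-treated testes with droplet-based 3' sequencing, which counts polyadenylated transcripts by unique molecular identifiers (UMI). The barcodes carry the suffixes 1 to 4, each a library, and no label ties a suffix to a sample. The genotypes were therefore not compared, and no test between conditions was made.

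Of 32273 barcodes, 31992 had at least 500 genes and were kept with no limit on the mitochondrial share, 8112, 7528, 7820 and 8532 in suffixes 1 to 4. They held 190504186 UMI, a median of 2450.0 per barcode, and between 44434451 and 50325887 per suffix. The 10 members held 2269304 of these UMI, or 1.19%, with 1.10, 1.36, 1.07 and 1.24% in suffixes 1 to 4. Of 31499 barcode sequences, 489 recurred in more than 1 suffix. The cells fell into 29 clusters, formed without the mitochondrial genes and without the nuclear genes described below, and 24 of them could be named from markers. The names rest on marker genes and are given as "like", and 4766 cells stayed unnamed. The naming rule also looked for markers among the 10 leading genes of a cluster, which were ranked over all genes, the members included. The levels of these transcripts across classes were known when the genes were chosen, so what follows is a description. Intervals are exact 95% binomial intervals and cover counting error only.

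The mitochondrial genome is transcribed as long polycistronic RNAs that are cut at the tRNAs between the genes and then polyadenylated, so that its messenger RNAs start from a shared precursor and end up at different levels through processing and stability. All of the members encode subunits of the oxidative phosphorylation chain and depend on nuclear partners, which also make the mitochondrial RNA polymerase, the RNA-binding factors and the mitochondrial ribosome. In spermatogenesis, mitochondria change shape and position, and spermatids shed much of their cytoplasm and arrange the mitochondria that remain in a sheath around the midpiece of the tail.

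The counted fragments start near the 3' end of each transcript. The ends of the 6 members with the most UMI are shown here as the last 60 bases of each gene on the plus strand of GRCm38, taken from the GENCODE M21 transcripts, with the encoded letters of the stop codon in capitals. They are mt-Nd1 on chrM:3648-3707, mt-Co1 on chrM:6813-6872, mt-Co2 on chrM:7637-7696, mt-Atp6 on chrM:8548-8607, mt-Co3 on chrM:9331-9390 and mt-Cytb on chrM:15229-15288.
mt-Nd1: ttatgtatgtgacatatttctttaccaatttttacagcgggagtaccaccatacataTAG
mt-Co1: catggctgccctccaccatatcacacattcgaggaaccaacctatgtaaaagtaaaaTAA
mt-Co2: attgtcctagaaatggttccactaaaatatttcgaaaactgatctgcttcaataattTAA
mt-Atp6: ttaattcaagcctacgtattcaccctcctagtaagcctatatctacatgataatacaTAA
mt-Co3: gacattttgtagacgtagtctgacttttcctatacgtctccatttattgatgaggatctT
mt-Cytb: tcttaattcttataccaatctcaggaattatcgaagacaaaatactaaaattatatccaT
In mt-Co3 and mt-Cytb, as in mt-Nd4, the genome encodes only the first letter of the stop codon, and the poly(A) tail supplies the rest. The longest run of A within a member was between 4 and 8 bases. The members span 348 bases (mt-Nd3) to 1824 bases (mt-Nd5). mt-Atp8, mt-Nd4l and mt-Nd6 are the other 3 protein-coding rows of this genome and had 132, 914 and 97 UMI in all. mt-Atp8 overlaps mt-Atp6 by 43 bases and mt-Nd4l overlaps mt-Nd4 by 7, each pair lying on a single messenger RNA, so that counts near these junctions could have been split. mt-Nd6 is encoded on the opposite strand and overlaps mt-Nd5 by 14 bases.

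The members' share of all UMI differed widely between classes. It was highest in Leydig-like cells, the androgen-producing cells of the interstitium, at 7.47% (6.77 to 8.19% over the suffixes), and in Sertoli-like cells, which nurse the germ cells, at 7.03% (6.37 to 7.88% over the suffixes). Spermatogonia-like cells came next at 5.71% (5.54 to 5.92% over the suffixes). Interstitial mesenchymal-like cells had 3.92% (3.60 to 4.47% over the suffixes), macrophage-like cells 3.57% (3.20 to 3.85% over the suffixes) and endothelial-like cells 3.25% (2.75 to 3.63% over the suffixes). Early spermatocyte-like cells had 1.92% (1.82 to 2.00% over the suffixes) and late spermatocyte-like cells 1.74% (1.51 to 1.94% over the suffixes). Round spermatid-like cells had 0.453% (0.366 to 0.517% over the suffixes), a value that was 0.973% without the 5% of barcodes with the most UMI and 1.2% with each cell weighing the same. The deep round spermatid-like cluster 17, with a median of 28698 UMI per cell, had 0.127%. The lowest level was that of the elongating spermatid-like cells, 0.0768% (0.0644 to 0.0889% over the suffixes). In this order the suffix ranges overlapped between Leydig- and Sertoli-like cells, among the mesenchymal-, macrophage- and endothelial-like cells, and between the spermatocyte-like classes. They did not overlap between spermatogonia-like cells and either neighbour in the order, nor between round and elongating spermatid-like cells. This order is that of the pooled UMI. The median cell held 5.90% in Leydig-like, 4.36% in spermatogonia-like and 2.61% in Sertoli-like cells. The Sertoli-like median was also below those of macrophage-, mesenchymal- and endothelial-like cells, at 3.22, 3.06 and 2.97%. The top 10% of Sertoli-like cells held 66.4% of that class's member UMI. In mean member UMI per cell, spermatogonia-like cells had 239, early spermatocyte-like cells 271, late spermatocyte-like cells 108, round spermatid-like cells 37.6 and the elongating class 6.33. The median cells of these classes held 211, 192, 22, 3 and 1 member UMI in the same order. Cells with no member UMI made up 4.78, 5.48, 17.1, 23.1 and 42.5% of them, and 3.14, 6.81, 15.6, 44.3 and 77.8% once each cell was thinned to 1000 UMI and 124, 46, 882, 302 and 42 shallower cells were left out. On the thinned scale the share of such cells was higher at each later stage.

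Clusters of a class that differed in depth also differed in the share, in either direction. Among late spermatocyte-like cells, cluster 24 had a median of 38008 UMI per cell and 0.697% from the members, while cluster 13 had 4028 UMI and 3.82%. In mean member UMI per cell the order was the other way, with 329 in cluster 24 and 227 in cluster 13. Cluster 0, also late spermatocyte-like, was mixed, with 2.68% in the sum over cells and 0.243% in the median cell. Among Sertoli-like cells, clusters 27, 4 and 1 had 14.3, 7.57 and 4.02%. The median cell of cluster 27 held 7019 UMI, that of cluster 4 1149 and that of cluster 1 870.5, so the share and the depth moved together there. The part of depth in these shares was not tested. Cluster 2, with 2604 cells, stayed unnamed because none of its leading genes was a marker. Members made up most of those leading genes, and their share there was 6.30% (4.56 to 8.19%) at a median of 882 UMI per cell. The best marker score of cluster 2 was that of round spermatids, 0.832. The members' own level may thus have had a part in which cells entered the named classes, which was not tested.

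**Figure D1:**
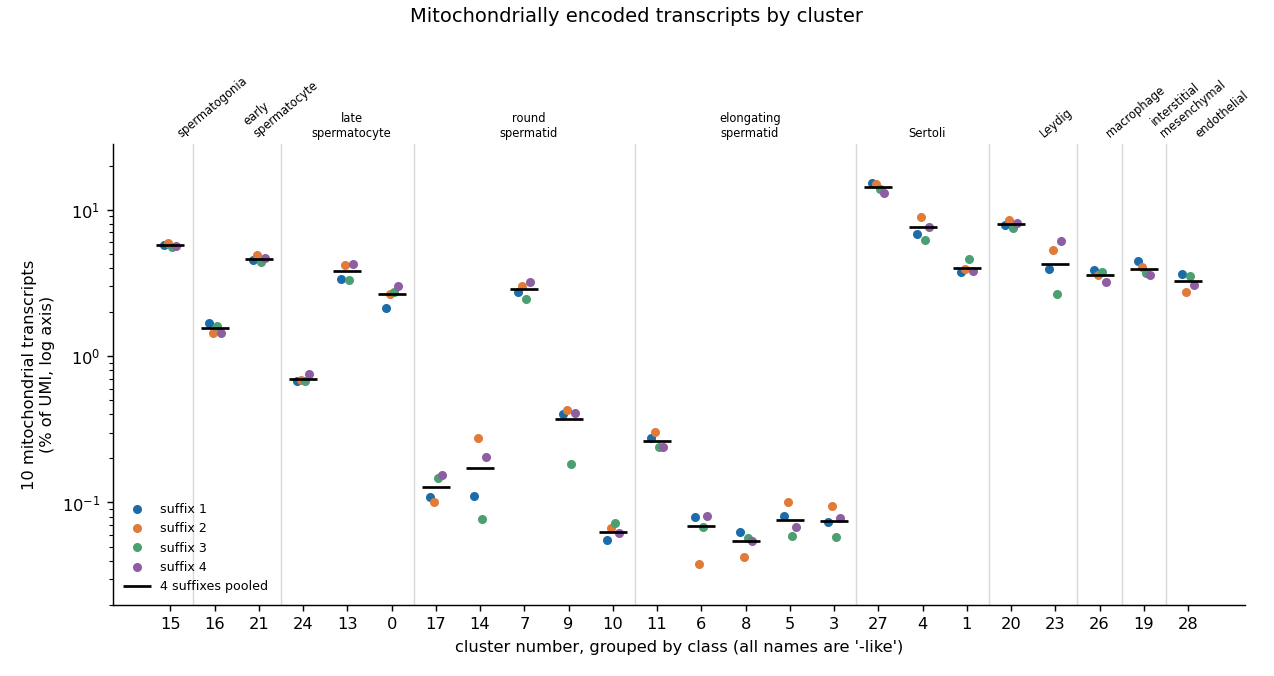
Share of all UMI that came from the 10 mitochondrially encoded members (percent, log axis) for each named cluster, grouped by class; points are the 4 barcode suffixes and bars the pool. Round spermatid-like cluster 7 stands at 2.86%, and the other 4 round spermatid-like clusters lie between 0.0629 and 0.371%.

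In pooled CPM, the members fell at 3 of the 4 steps between neighbouring germ cell classes. Levels are in CPM, the UMI of a gene scaled to the same total in every class. A gene was called lower or higher when the pooled CPM differed by 2-fold or more and all 4 suffixes had the same sign. From spermatogonia-like to early spermatocyte-like cells, all 10 members were lower, where 38.4% of 11241 genes with at least 50 UMI were lower. Their summed CPM had a log2 ratio of -1.57 (suffixes -1.70 to -1.47). The mean per cell ran the other way, with 271 member UMI in early spermatocyte-like and 239 in spermatogonia-like cells. The median cell did not, with 192 in early spermatocyte-like and 211 in spermatogonia-like cells. Early spermatocyte-like cluster 16, with a median of 10598 UMI per cell, had 1.55% from the members. Cluster 21, with 3662 UMI, had 4.62%, against 5.71% in the spermatogonia-like cells, which were of like depth at 3246 UMI. The lower level at this step was thus less than 2-fold in the cluster of like depth. Between late and early spermatocyte-like cells the summed ratio was -0.14, with suffixes on both sides of 0 (-0.40 to 0.09), and only mt-Cytb was called lower, against 23.8% of 11965 genes. Round spermatid-like cells set against late spermatocyte-like cells gave a summed ratio of -1.94 on the log2 scale (-2.05 to -1.83), again with all 10 members lower, where 31.0% of 13621 genes were lower.

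From round to elongating spermatid-like cells the summed members fell to 768 CPM, against 4533 CPM in round spermatid-like cells, a log2 ratio of -2.56 (suffixes -2.74 to -2.18). In suffixes 1 to 4 the share was 0.0805, 0.0889, 0.0644 and 0.0774% in elongating and 0.366, 0.509, 0.429 and 0.517% in round spermatid-like cells. All 10 members were lower, from mt-Nd1 at -1.79 to mt-Nd5 at -3.10. This count says little about the members, since 69.5% of 13457 genes were lower at this step and 5.91% higher, and the median of all genes tested was -1.97 beside a median of -2.57 for the members. The UMI of elongating spermatid-like cells are taken up by few transcripts, with 15% of the median cell's UMI outside the mitochondrial genes coming from the transition protein and protamine genes Tnp1, Tnp2, Prm1 and Prm2, against 1.69% in round spermatid-like cells. With those 4 genes left out of the denominator the share was 0.0913% in elongating and 0.465% in round spermatid-like cells.

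mt-Co1, the largest subunit of cytochrome c oxidase, had 135, 180.0, 126 and 143 CPM in suffixes 1 to 4 of the elongating spermatid-like cells. In round spermatid-like cells it had 722, 1047, 1033 and 1096 CPM. Every suffix of the elongating class was below every suffix of the round class, and the log2 ratio was -2.75 (suffixes -3.03 to -2.42). mt-Cytb had 54.5, 53.7, 44.4 and 49.2 CPM in elongating and 165, 228, 217 and 231 CPM in round spermatid-like cells, again without overlap, at -2.06. mt-Nd5 was scarce, with 2.36, 3.26, 2.17 and 2.16 CPM in elongating and 17.1, 26.0, 18.8 and 21.9 CPM in round spermatid-like cells, and rests on 176 UMI in the elongating class. mt-Nd3 had 55 UMI there and 178 in the round class, so its ratio of -2.18 has a wide interval (-2.64 to -1.74). The other members had log2 ratios of -1.95 for mt-Nd2, -2.88 for mt-Nd4, -2.81 for mt-Co2, -2.53 for mt-Co3 and -2.61 for mt-Atp6.

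Most of the difference in level lay between round spermatid-like clusters and not at the border of this class with the elongating class. Cluster 7, with 1763 cells, had 2.86% of its UMI from the members, while the other 4 round spermatid-like clusters together, with 4462 cells, had 0.130%. Without cluster 7 the log2 ratio of elongating over round spermatid-like cells was -0.76, under 2-fold, and that of round over late spermatocyte-like cells was -3.74. Cluster 7 was singled out after its values had been seen, because it was the highest. Every one of the 9 other spermatid-like clusters was lower than cluster 7 in all 4 suffixes, by log2 ratios of CPM between -5.71 and -2.95. On mean member UMI per cell the ratios lay between -5.09 and -1.13.

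Cluster 14 was set beside cluster 7, again with the values known, because it was of like depth, with a median of 3579.5 UMI per cell against 2962 in cluster 7. Acrv1, which encodes an acrosomal protein, had 221 CPM in late spermatocyte-like cluster 13, 1192 CPM in cluster 7 and 1896 CPM in cluster 14. Spaca1, also acrosomal, had 297 CPM in late spermatocyte-like cluster 13, 1468 CPM in cluster 7 and 2583 CPM in cluster 14. Ccna1, a cyclin of male meiosis, ran the other way, with 475 CPM in late spermatocyte-like cluster 13, 284 CPM in cluster 7 and 109.7 CPM in cluster 14, and so did Aurka, a kinase of the division spindle, with 577 CPM in late spermatocyte-like cluster 13, 198 CPM in cluster 7 and 102 CPM in cluster 14. By these genes cluster 7 stood between cluster 13 and cluster 14. They were among the markers that named the classes, so their direction from cluster 13 to the round spermatid-like clusters was set in part by the naming. The share of Tnp1, Tnp2, Prm1 and Prm2 did not give the same order. Its median was 0.737% in cluster 13, 1.12% in cluster 7 and 1.02% in cluster 14. Cluster 17, with 0.127% from the members, had the lowest median of the round spermatid-like clusters, 0.266%. Round spermatid-like cluster 10, with a like median of 3469 UMI, had 0.0629% (0.0550 to 0.0719%) from the members.

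The members' share was 0.171% in cluster 14 (0.111, 0.277, 0.0769 and 0.203% in suffixes 1 to 4), against 2.86% in cluster 7 (2.74, 2.99, 2.47 and 3.20%). No suffix of cluster 14 came near any suffix of cluster 7. The median cell of cluster 14 held 2 member UMI and that of cluster 7 held 90, and 25.9% of cells in cluster 14 held none, against 0.737% in cluster 7. With each cell thinned to 1000 UMI, these were 56.9% and 1.87%, after 3 cells of cluster 14 and 48 of cluster 7 had been left out as too shallow. The summed log2 ratio of CPM was -4.06 (counting interval -4.10 to -4.03), and it ran from -5.00 to -3.43 over the suffixes.

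All 10 members were called lower in cluster 14 than in cluster 7, where 17.2% of 9330 genes were lower and 11.3% higher. Their ratios lay between -4.21 for mt-Co2 and -3.55 for mt-Nd2, with a median of -3.97, while the other genes had a median of -0.26. Because both clusters were picked with the members' levels known, these counts are no support for a difference between the members and other genes. mt-Co1 had 234, 548, 199 and 417 CPM in suffixes 1 to 4 of cluster 14, against 5492, 6243, 6009 and 6837 CPM in cluster 7. mt-Atp6 had 222, 623, 146 and 461 CPM in cluster 14, against 6456, 7087, 5334 and 7580.4 CPM in cluster 7. mt-Nd1 had 74.8, 199, 57.1 and 146 CPM in cluster 14, against 1427, 1506, 1453 and 1606 CPM in cluster 7. In each of these the suffixes of the clusters were far apart, and suffix 2 was the highest and suffix 3 the lowest of cluster 14. mt-Nd3, the scarcest member there, rests on 5 UMI in cluster 14 and 122 in cluster 7.

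Nuclear genes of mitochondrial function stayed close to the median of all genes between these clusters. Of 188 such genes with at least 50 UMI, 17 were lower, 3 were higher and 168 were neither, with a median log2 ratio of -0.33. The nuclear subunits had medians of -0.30 in complex I (34 genes, 3 lower), -0.33 in complexes II and III (13, 2 lower), -0.21 in complex IV (10, 1 lower) and -0.27 in the ATP synthase (16, 0 lower). Cox6c, a nuclear subunit of complex IV, had 419.7 CPM in cluster 14 and 436 CPM in cluster 7. Atp5b, which encodes the catalytic beta subunit of the ATP synthase, had 473 CPM in cluster 14 and 520.4 CPM in cluster 7. Ndufs1, a core subunit of complex I and 1 of the 3 lower there, had 58.4 CPM in cluster 14 and 120.4 CPM in cluster 7, a log2 ratio of -1.04. Malat1, a long RNA retained in the nucleus, had 4056 CPM in cluster 14 and 2553 CPM in cluster 7 (log2 ratio 0.67, under 2-fold). The mitochondrial ribosome had 6 of 69 genes lower and 3 higher. The lists furthest from the median of all genes, -0.26, were 3 others. Mitochondrial DNA transcription and replication had a median of -0.89 (8 genes, 2 lower). Mitochondrial RNA processing and stability had -0.75 (17 genes, 1 lower), and the sperm mitochondrial sheath had 0.53 (7 genes, 1 lower). Over all genes 17.2% were lower.

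**Figure D2:**
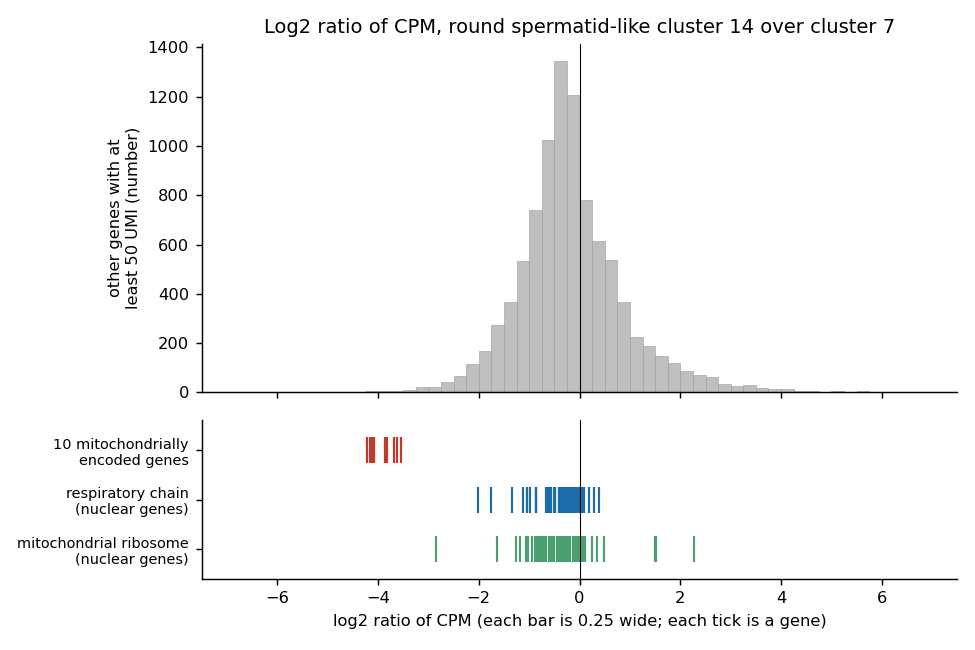
Number of genes by log2 ratio of CPM, round spermatid-like cluster 14 over cluster 7 (upper panel, genes outside the mitochondrial genome), and the ratios of the 10 members, of nuclear respiratory chain genes and of mitochondrial ribosome genes (lower panel, a tick for each gene). The members lie between -4.21 and -3.55, and the nuclear respiratory chain genes between -2.01 and 0.39. Both clusters were picked with the members' levels known, so this gap is no support for a difference between them and other genes.

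The difference between clusters 13 and 7 was small in CPM. From cluster 13 to cluster 7 the summed members had a log2 ratio of -0.42 (-0.48 to -0.31). None of the 10 was called, where 16.1% of 9816 genes were lower and 22.9% higher. Per cell the step was larger, with a mean of 227 member UMI in cluster 13 and 99.2 in cluster 7, and medians of 174 and 90. Cluster 13 had the highest share of the late spermatocyte-like clusters, 3.82%, against 2.68% in cluster 0 and 0.697% in cluster 24. The late class as a whole had 1.74%, below the 2.86% of cluster 7. mt-Nd1 had the lowest ratio, -0.84, and mt-Nd4, mt-Nd5 and mt-Cytb were near 0, at 0.12, 0.04 and 0.08, with suffixes of both signs. Set against cluster 7, elongating spermatid-like cells had all 10 members lower, at -5.22 for the sum (-5.37 to -5.07), where 65.0% of 11422 genes were lower. The other round spermatid-like clusters together, set against cluster 7, also had all 10 lower, at -4.46 (-4.60 to -4.34), where 27.4% of 12450 genes were lower. Elongating spermatid-like cells set against cluster 14 gave -1.16 (-1.64 to -0.26), with 6 of 10 members lower, where 62.7% of 10900 genes were lower and 8.51% higher.

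**Figure D3:**
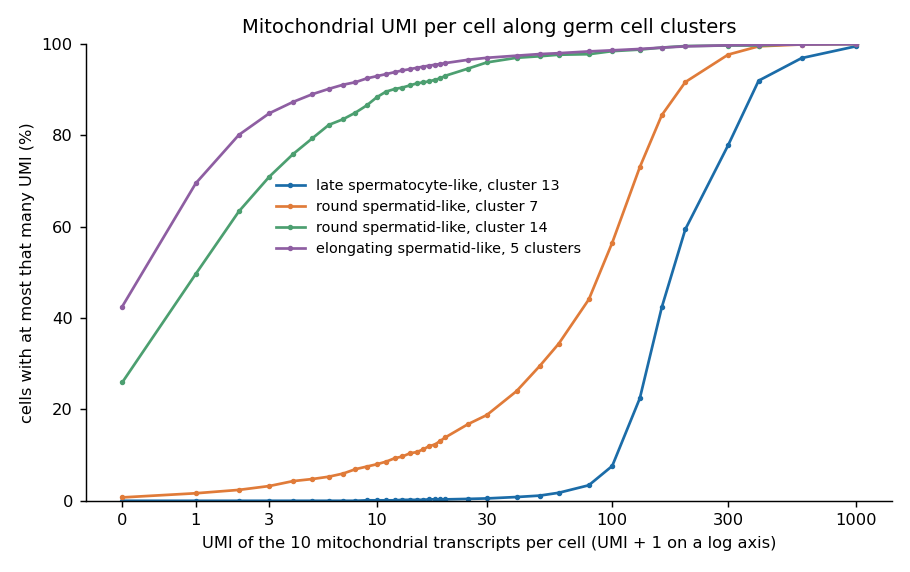
Percent of cells that held at most a given number of UMI from the 10 members (UMI + 1 on a log axis) in late spermatocyte-like cluster 13, round spermatid-like clusters 7 and 14 and the 5 elongating spermatid-like clusters. At most 10 UMI were held by 0.103% of cells in cluster 13, 8.0% in cluster 7, 88.3% in cluster 14 and 93.0% of elongating spermatid-like cells.

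All 15017 spermatid-like cells were ordered by the share of Tnp1, Tnp2, Prm1 and Prm2 and cut into 10 groups of equal size. The pooled share of the members was above the first group in the 3 groups after it and below it from the fifth on. These groups are ranges of a score and no cell types. In the pool the members held 0.357, 1.09, 1.15, 0.429, 0.122, 0.116, 0.0662, 0.0572, 0.0679 and 0.0479% of the UMI of groups 1 to 10. The pooled share was highest in the second and the third, was 0.122% in the fifth (0.0743 to 0.160% over the suffixes) and changed little between the seventh and the ninth. The first group was also deeper than the next, with a median of 7288 UMI per cell against 2954 in the second. The median cell held 0.140% in the first group, 0.22% in the second, 0.0677% in the third, 0.0524% in the fourth and 0.00807% in the last. Mean member UMI per cell fell over groups 1 to 4, at 62.8, 43.5, 31.3 and 14.7. The pooled rise after the first group was thus not seen per cell, and in the median cell only in the second group. Within the elongating class, cells cut into 5 groups by falling Tnp1 over Tnp1 plus Prm2, since Tnp1 precedes Prm2 in chromatin condensation, had 0.0569, 0.0689, 0.146, 0.0925 and 0.0431%. These groups showed no steady order, and their lowest was the last.

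**Figure D4:**
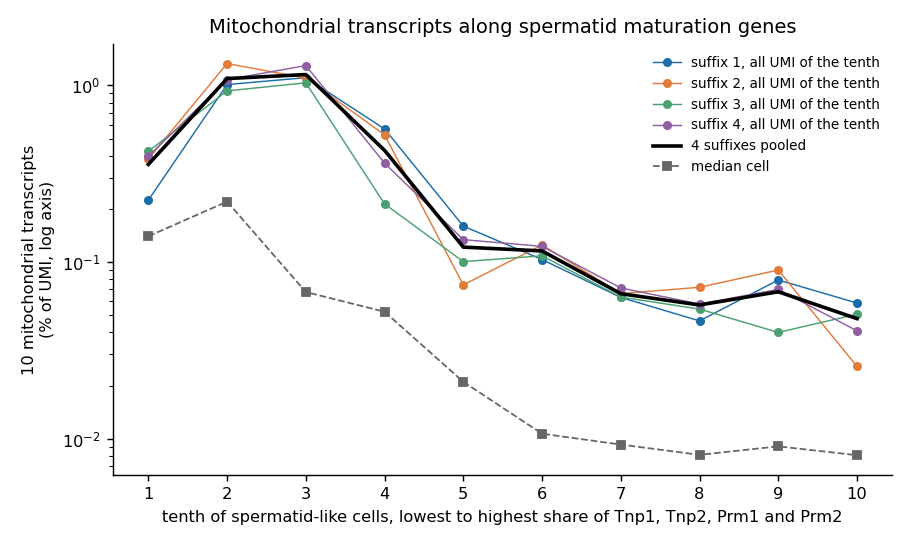
Share of UMI from the 10 members (percent, log axis) in 10 groups of the spermatid-like cells ordered by the summed share of Tnp1, Tnp2, Prm1 and Prm2; coloured lines are the suffixes, the black line the pool and the dashed line the median cell. The pool stands at 1.15% in the third group and 0.0479% in the last.

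What remained in elongating spermatid-like cells was spread unevenly over cells. The median cell held 1 member UMI, 42.5% of cells held none, and the 10% of cells with the most held 86.3% of the class's member UMI. In spermatogonia-like cells the top 10% held 29.6%, and in round spermatid-like cluster 7 they held 26.7%. In the other round spermatid-like clusters together they held 82.9%, so the uneven spread was not particular to the elongating class. Of the elongating spermatid-like cells, 663 held at least 10 member UMI, 158, 146, 171 and 188 in suffixes 1 to 4, and together they held 83.2% of the class's member UMI. 242 cells lay within 2 UMI of this limit. The 663 cells had a median depth of 8320 UMI, against 6263 in the other cells of the class. Their median of 15.2% transition protein and protamine UMI was near the 15% of the other cells of the class. The 16 Sertoli markers summed to 75.9 CPM in these cells (66.0 to 91.3 over the suffixes), against 17.1 CPM in the others (13.6 to 21.9), with 12 of the 16 higher and Sox9, Amh, Gata4 and Fshr at 0. The 16 late spermatocyte markers summed to 5444 CPM, against 5349 CPM. The 10 interstitial mesenchymal markers summed to 9.26 CPM (6.16 to 10.7), against 4.06 CPM (3.62 to 4.94), with 6 of the 10 higher and Pdgfra, Col1a2, Col3a1 and Pdgfrb at 0. The 16 round spermatid markers summed to 4257 CPM (3873 to 4749), against 3985 CPM (3780.3 to 4193), with 14 of the 16 higher and overlapping ranges. In the other 7 marker lists, the summed ranges of these cells and the rest overlapped. Doublets were not removed, and their part in these cells was not tested.

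UMI of genes of other cell types were found throughout. Prm2, a gene of late spermatids, had a mean of 22.0 UMI in Sertoli-like cells and 26.9 UMI in Leydig-like cells. The Sertoli gene Cst9 averaged 0.0414 UMI in elongating spermatid-like cells, against 3.58 in Sertoli-like cells, and the Leydig gene Cyp17a1 had 0.00796, against 16.6 in Leydig-like cells. Every cell type makes the members, so their own level in free RNA could not be read from a cell type that lacks them, and its part in the low level of elongating spermatid-like cells was not tested.

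The order of the members by level was much alike between classes. Per kilobase of gene length, mt-Atp6 was the highest and mt-Co3 the second in each of the 10 named classes, and mt-Nd3 and mt-Nd5 were the lowest pair in each. In elongating spermatid-like cells the levels were 251 CPM per kilobase for mt-Atp6, 227 for mt-Co3, 148 for mt-Co2, 93.0 for mt-Co1, 77.4 for mt-Nd1, 43.7 for mt-Cytb, 23.1 for mt-Nd4, 14.2 for mt-Nd2, 2.18 for mt-Nd3 and 1.33 for mt-Nd5. In round spermatid-like cells mt-Atp6 stood at 1538 and mt-Nd5 at 11.4 CPM per kilobase. With 3' counts, a per-length level also carries how well each end was captured.

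The balance among the members, taken as each member's share of their summed UMI, moved most in meiosis. mt-Cytb made up 3.73% (2.98 to 4.80%) of the members' UMI in late spermatocyte-like cells and 9.08% (8.64 to 9.43%) in early spermatocyte-like cells, a log2 ratio of -1.28 and the only share that differed at least 2-fold at a step between neighbouring germ cell classes. mt-Co1 ran the other way, with 22.9% (21.7 to 23.7%) of the members' UMI in late spermatocyte-like cells and 13.3% (12.2 to 14.1%) in early spermatocyte-like cells. In CPM, mt-Co1 was at 3989 in late and 2548 in early spermatocyte-like cells, and mt-Cytb at 649.7 in late and 1742 in early spermatocyte-like cells. The suffix ranges of both genes were apart. By cluster, mt-Cytb was at 3.43, 3.10 and 5.34% in late spermatocyte-like clusters 24, 13 and 0, whose median depths were 38008, 4028 and 1208 UMI per cell. It was at 8.65 and 10.1% in early spermatocyte-like clusters 16 and 21. The shallowest late cluster, cluster 0, thus had the highest share of the late clusters and lay below both early clusters.

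From early to late spermatocyte-like cells, 11.6% of the members' UMI would have to be assigned to another member to turn the balance of the later class into that of the earlier. The same measure was 7.68% between early spermatocyte-like and spermatogonia-like cells, 3.65% between round spermatid-like and late spermatocyte-like cells, and 7.05% between elongating and round spermatid-like cells. The round spermatid-like balance was mostly that of cluster 7, with 174923 of the class's 234258 member UMI. By cluster, the distance from the late spermatocyte-like balance was 3.47% in cluster 7. It was 4.76, 4.36, 5.24 and 6.11% in round spermatid-like clusters 17, 14, 9 and 10, where the level was lower.

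Set against the round class as a whole, the elongating spermatid-like balance was tilted towards mt-Nd1, mt-Nd2 and mt-Cytb. mt-Nd1 made up 9.65% (8.80 to 10.6%) of the members' UMI in elongating spermatid-like cells and 5.66% (5.38 to 6.08%) in round spermatid-like cells. mt-Nd2 made up 1.93% (1.83 to 2.14%) of the members' UMI in elongating spermatid-like cells and 1.26% (1.07 to 1.36%) in round spermatid-like cells, and mt-Cytb 6.51% (6.04 to 6.90%) of the members' UMI in elongating spermatid-like cells and 4.62% (4.48 to 5.07%) in round spermatid-like cells. mt-Co2 made up 13.2% (12.4 to 13.6%) of the members' UMI in elongating spermatid-like cells and 15.6% (13.7 to 16.5%) in round spermatid-like cells. In all, 4 shares were higher and 5 lower in every suffix, mt-Nd3 went both ways, and no share differed 2-fold. The lower shares were those of mt-Co1, mt-Co2, mt-Atp6, mt-Nd4 and mt-Nd5, between -0.54 for mt-Nd5 and -0.05 for mt-Atp6 on the log2 scale. mt-Co3 counts among the higher shares with a log2 ratio of only 0.03. The elongating balance was nearer to that of all cells pooled (2.83% placed differently) than to that of round spermatid-like cells. Cluster 7 held 174923 of the round class's 234258 member UMI and differed from that class by 0.779%. Clusters 10 and 9 differed from the elongating class by 1.83 and 2.91%, against 6.01 and 4.62% from the round class. Clusters 14 and 17 were nearer to the round class, at 3.32 and 1.14%, against 5.54 and 7.08% from the elongating class. A balance near the elongating one was thus also found in round spermatid-like clusters. The part of free RNA in these balances was not tested.

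Somatic classes had balances of their own. Leydig-like cells had the highest share of mt-Co1, 26.9% (25.6 to 27.9%), and the lowest share of mt-Co2, 9.65% (9.37 to 10%). Sertoli-like cells had the highest share of mt-Nd1, 12.0% (11.8 to 12.1%). Endothelial-like cells had the highest share of mt-Atp6, 27.6% (26.1 to 28.4%), from only 41 cells. mt-Cytb was at 10.1% in endothelial-like and 10% in interstitial mesenchymal-like cells, above the 6.51% of elongating spermatid-like cells and the 3.73% of late spermatocyte-like cells.

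**Figure D5:**
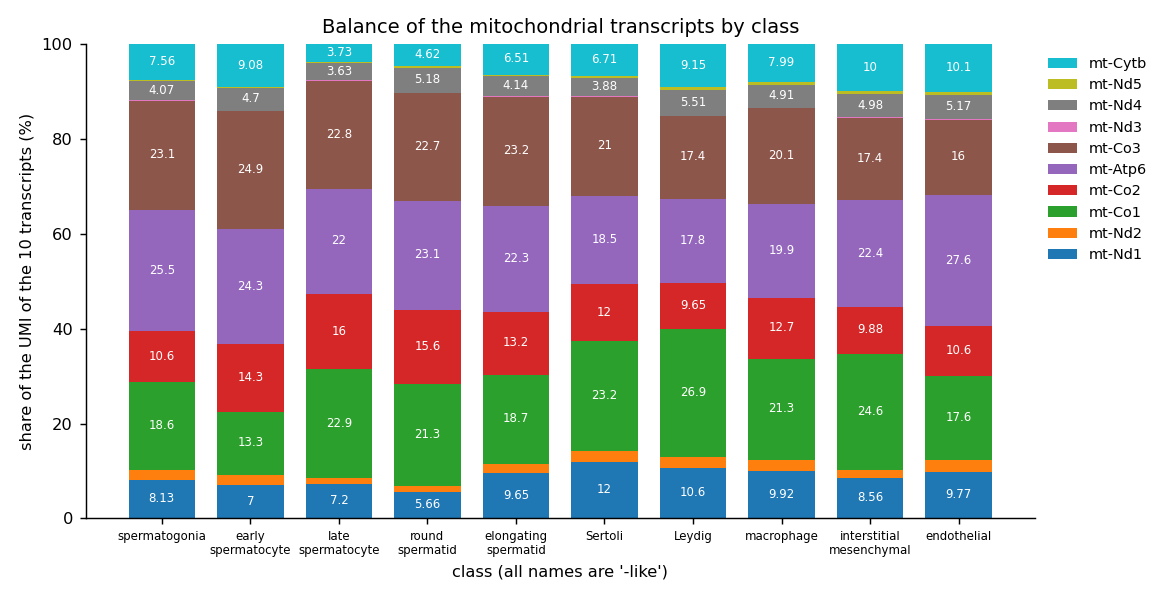
Share of each of the 10 members in their summed UMI (percent) for each named class; the segments of a bar add up to 100%. The mt-Cytb segment is thinnest in late spermatocyte-like cells at 3.73%, and the mt-Co1 segment ranges from 13.3% in early spermatocyte-like to 26.9% in Leydig-like cells.

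Nuclear genes of mitochondrial function were mostly lower in elongating than in round spermatid-like cells, at about the rate of all genes. Of 205 with at least 50 UMI, 155 were lower and 3 higher, with a median of -2.01 beside -1.97 for all genes. Of all 13457 genes tested at this step, 69.5% were lower and 5.91% higher, and the counts below stand beside these shares. Of the nuclear subunits of complex I, 28 of 36 were lower (median -1.89), with Ndufs1, a core subunit, at 5.07 CPM in elongating and 50.1 CPM in round spermatid-like cells (log2 ratio -3.31, suffixes -3.69 to -3.07) and Ndufb7, an accessory subunit, at 174 CPM in elongating and 121 CPM in round spermatid-like cells (log2 ratio 0.53, suffixes 0.49 to 0.57). Of complexes II and III, 10 of 13 were lower, with Sdha, the flavoprotein of succinate dehydrogenase, at 7.88 CPM in elongating and 57.2 CPM in round spermatid-like cells (log2 ratio -2.86, suffixes -3.21 to -2.61). Of complex IV, 10 of 11 were lower (median -2.41), with Cox6c at 32.6 CPM in elongating and 277 CPM in round spermatid-like cells (log2 ratio -3.09, suffixes -3.36 to -2.84). Of the ATP synthase, 9 of 16 were lower (median -1.38), with Atp5b at 78.9 CPM in elongating and 547 CPM in round spermatid-like cells (log2 ratio -2.79, suffixes -2.87 to -2.61) and Atp5g2, a subunit of the membrane ring, at 33.7 CPM in elongating and 21.6 CPM in round spermatid-like cells (log2 ratio 0.64, suffixes 0.57 to 0.71).

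The testis forms of respiratory chain proteins, Cyct, Cox7b2, Cox6b2 and Cox8c, were all lower at this step, where 69.5% of all genes were lower. Cox8c, a complex IV subunit, was at 221 CPM in elongating and 1016 CPM in round spermatid-like cells (log2 ratio -2.20, suffixes -2.32 to -2.0). Cyct, the testis cytochrome c, was at 15.5 CPM in elongating and 101 CPM in round spermatid-like cells (log2 ratio -2.71, suffixes -3.09 to -2.52). At the step from spermatogonia-like to early spermatocyte-like cells, the members were lower in pooled CPM but not in mean UMI per cell. There all 4 testis forms were higher, with a median log2 ratio of 2.90, where 20.1% of genes were higher. Tfam, which encodes the mitochondrial transcription factor A that packs and transcribes this genome, moved against the members. It had 1387 CPM in elongating and 398 CPM in round spermatid-like cells (log2 ratio 1.80, suffixes 1.66 to 1.91), where 5.91% of genes were higher. It was also higher in round spermatid-like cells, at 398 CPM, than in late spermatocyte-like cells, at 62.8 CPM, a step at which 32.9% of genes were higher. Mouse testis is known to make a Tfam messenger RNA whose product lacks the mitochondrial import signal, and 3' counts do not tell the forms apart. Of the other tested genes of the list of mitochondrial DNA transcription and replication, 10 were lower from round to elongating and 1 was neither, where 69.5% of all genes were lower. Tfb1m, the rRNA methyltransferase of the mitochondrial ribosome, was at 7.44 CPM in elongating and 62.1 CPM in round spermatid-like cells (log2 ratio -3.06, suffixes -3.20 to -2.92).

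The counts that follow stand beside 69.5% lower and 5.91% higher over all genes at this step. Of the genes of mitochondrial RNA processing and stability, 18 of 19 were lower (median -2.31), with Trmt10c, a subunit of the mitochondrial RNase P, at 0.621 CPM in elongating and 12.4 CPM in round spermatid-like cells (log2 ratio -4.32, suffixes -5.01 to -3.89) and Supv3l1, the helicase of the RNA degradation complex, at 1.04 CPM in elongating and 12.5 CPM in round spermatid-like cells (log2 ratio -3.60, suffixes -3.74 to -3.47). Of the mitochondrial ribosome, 53 of 75 were lower and Mrpl49 alone was higher, at 23.6 CPM in elongating and 8.57 CPM in round spermatid-like cells (log2 ratio 1.46, suffixes 1.16 to 1.89), while Mrps12 was at 8.81 CPM in elongating and 155 CPM in round spermatid-like cells (log2 ratio -4.13, suffixes -4.37 to -3.91). Of mitochondrial import and proteostasis, 11 of 12 were lower, with Tomm20, a receptor of the outer membrane, at 19.8 CPM in elongating and 199.7 CPM in round spermatid-like cells (log2 ratio -3.33, suffixes -3.54 to -3.06). The list of the sperm mitochondrial sheath was mixed, with 1 higher, 2 lower and 4 neither. Smcp, a cysteine-rich protein of the sheath, had 16402 CPM in elongating, against 3511 CPM in round spermatid-like cells (log2 ratio 2.22, suffixes 2.07 to 2.39). Smcp was among the elongating spermatid markers that named the classes, so its direction was set in part by the naming. Gpx4, the peroxidase that becomes a structural part of the sheath, had 6967 CPM in elongating and 3485 CPM in round spermatid-like cells (log2 ratio 1.0, suffixes 0.95 to 1.03), just under 2-fold. Gk2, a glycerol kinase needed for the sheath, had 75.5 CPM in elongating and 708 CPM in round spermatid-like cells (log2 ratio -3.23, suffixes -3.56 to -2.94). Among RNAs of the nucleus, Malat1 had 15.9 CPM in elongating and 1137 CPM in round spermatid-like cells (log2 ratio -6.16, suffixes -6.64 to -5.88) and Neat1 had 1.53 CPM in elongating and 7.57 CPM in round spermatid-like cells (log2 ratio -2.30, suffixes -2.83 to -1.94).

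Over the 29 clusters, the members followed each other closely. Each correlated with their summed level at a Pearson r of at least 0.979 on the log2(CPM + 1) scale, of which the sum itself is a part. Of 9112 nuclear genes with at least 1000 UMI, the 10 most like the members were Gnai3, Top1, Ssr2, 1500011B03Rik, Ufm1, Vta1, Ngrn, Ing4, 1810037I17Rik and Sec22b, with r between 0.905 and 0.928. None of these is in a list of mitochondrial genes used here. Top1, a nuclear DNA topoisomerase, ranged from 1.09 CPM in elongating spermatid-like cluster 5 to 233 CPM in Sertoli-like cluster 27, and Sec22b, a protein of vesicle transport, from 0.528 CPM in elongating spermatid-like cluster 3 to 150.3 CPM in early spermatocyte-like cluster 21. Over the 10 spermatid-like clusters the nearest were C730034F03Rik, Rab34, 1500011K16Rik, Preb and Bcdin3d, with r between 0.970 and 0.994, all highest in cluster 7. Clusters share libraries and free RNA and differ in depth, and Rab34 reached 1.14 CPM at most.

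Barcodes with more than 10% of their UMI from the members numbered 2021, or 6.32% of those kept (5.58, 7.56, 5.24 and 6.90% in suffixes 1 to 4). They made up 14.7% of spermatogonia-like, 13.8% of Leydig-like and 13.2% of Sertoli-like cells, 7.69% of late spermatocyte-like, 1.73% of round and 0.182% of elongating spermatid-like cells. A limit at 10% would thus remove different shares of the classes. A further 671 lay in the unnamed clusters.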

How the data were processed

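Single-cell libraries of testicular cells were made with a Chromium 3' kit (v3), per the labels' protocols, and reads came from 2 instruments. The deposited matrix holds raw UMI counts per gene and barcode, made by the authors with Cell Ranger 3.0.2 after bcl2fastq 2.19.1.403, with build mm10, per the submitters' processing notes. The annotation release and whether depth was equalised between libraries are not given in the sources used here. Counts without strand or copy information beyond the gene row were taken as deposited, and nuclear copies of mitochondrial sequence were not separated.

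Barcodes with at least 500 genes were kept, with no limit on mitochondrial RNA and no doublet removal. Clusters came from scanpy 1.11.5 (2000 variable genes, 30 principal components, 15 neighbours) and Leiden (leidenalg 0.10.2) at resolution 1. They were named from markers of 13 cell types by a scoring rule set after the clusters were seen. Ratios are log2 ratios of summed CPM, with no pseudocount, and were called at 2-fold in the pool with the same direction in all 4 suffixes, for genes with at least 50 UMI over both classes. No test was run, since cells are not replicates and suffixes are tied to no sample. Intervals are exact 95% binomial intervals for counting error only, and the limit for a count of 0 is 3 counts. Thinning drew 1000 UMI per cell. Code was tested on simulated data.

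The members, the 11 lists of nuclear genes and the comparisons were chosen with earlier results of these data known. Named nuclear genes come from the 2 highest and the 2 lowest ratios of each list (elongating over round spermatid-like) among genes with the same direction in every suffix, plus Malat1 and Neat1. Alternatives covered the gene minimum, a 10% mitochondrial limit, each suffix, the deepest 5% of barcodes, clustering, cell weights, denominators and the UMI minimum.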

Additional observations from a re-analysis of the deposited data

Results flagged for a closer look

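Barcodes outside the comparisons also held mitochondrial transcripts. The 281 barcodes with fewer than 500 genes were left out of every class, and 29.9% of their 240764 UMI came from the 10 members (exact 95% interval 29.8 to 30.1%, counting error only). The share was 26.9% in suffix 1 (130 barcodes), 52.6% in suffix 2 (11 barcodes), 28.7% in suffix 3 (110 barcodes) and 35.1% in suffix 4 (30 barcodes). The barcodes that were kept had 1.19%.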

How the results depend on the processing

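Among the results that were rerun, which are given below, no direction was reversed under any alternative. The steps between the earlier germ cell classes and the order of all classes were not rerun. The share of UMI in elongating spermatid-like cells, and then in round spermatid-like cells, was 0.0703% and 0.422% with at least 1000 genes per barcode, 0.0658% and 0.409% with at most 10% mitochondrial UMI, 0.0813% and 0.973% without the deepest 5% of barcodes, 0.0910% and 0.592% at resolution 0.5, 0.0748% and 0.501% at resolution 2, 0.117% and 0.405% with mitochondrial genes allowed in the clustering, 0.127% and 1.2% with each cell weighing the same, and 0.0913% and 0.465% without the transition protein and protamine genes in the denominator. Leaving out each suffix in turn gave 0.0738 to 0.0816% and 0.432 to 0.487%. Without cluster 7, an alternative chosen after seeing the data, round spermatid-like cells had 0.130%, and the ratio of elongating over round spermatid-like cells was -0.76 and no longer 2-fold. The other alternatives left that ratio past 2-fold, down to -3.58. The ratio of round spermatid-like over late spermatocyte-like cells stayed past 2-fold, from -3.74 to -1.37. For single members, 131 of 140 values of the first ratio and 118 of 120 of the second kept their call. With each cell weighing the same, 2 members had a higher and 3 a lower share in elongating spermatid-like cells in every suffix. The last over the first of the 10 groups ordered by transition protein and protamine share ranged from -4.36 to -1.66. Nuclear genes called lower ranged from 148 to 156 and those called higher from 2 to 4. Beyond what each alternative changes by its construction, the cause of these shifts was not tested. No paired analysis was possible because no suffix is tied to a sample or its replicate number, and no test was run. Classes were compared within each suffix, and the calls rest on the sign of those ratios. Depth limits mt-Nd3 and mt-Nd5 most, and cells near 1000 UMI.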
